A study of Mus musculus with 6 samples.

Results

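The collectins and the proteins that work with them in the lectin pathway of complement were followed as 8 genes: Colec10, Colec11, Colec12, Mbl1, Mbl2, Fcna, Masp1 and Masp2. The genes were taken by symbol, not by measured values, and all 8 were found, on 14 of 45101 probe sets and among 20677 genes with a probe set of their own. RNA came from E12.5 livers of wild type mouse embryos of the C57Bl6 strain, with no treatment named in the labels. There were 6 groups of 1 array each: liver cells, ALCAM+ cells, and ALCAM+ cells that were PDPN+, PDPN-, ITGA8+ or ITGA8-. ALCAM is a cell adhesion molecule, podoplanin (PDPN) marks mesothelium among other tissues, and integrin alpha 8 (ITGA8) is the receptor subunit that the series ties to a group of hepatic stellate cells. The labels do not give the number of embryos behind a sample. A single array per group allows no test and gives no replicate error, and neighbours in an order of levels cannot be said to differ.

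Collectins are secreted or membrane lectins that join a collagen-like stalk to a C-type lectin head and bind sugars on microbes and cell debris. Mannose-binding lectins, ficolins and the heteromer of collectin 10 (CL-L1, gene Colec10) and collectin 11 (CL-K1, gene Colec11) carry MASP serine proteases, which cleave complement C4 and C2 once the lectin has bound. The liver is the main source of most of these proteins. Collectin 11, collectin 10 and MASP-3, a product of Masp1, also guide cell migration in the embryo, and their loss in people causes 3MC syndrome.

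Promoter sequence from RefSeq (build GRCm38.p6) was read for 5 of the 8 genes: Colec11, Fcna, Masp2, Mbl1 and Mbl2. Colec10 and Masp1 had no entry, and Colec12 was left out of the sequence search. The windows of the 2 mannose-binding lectins are shown first because these genes had the same order over the 4 fractions. That order was not theirs alone: Masp2 had it too, and Masp1 by probe set 1419677_at. Within the 250 bases before each start, the best ungapped match of 40 bases between Mbl1 and Mbl2 had 34 identical positions (85%). The other 9 pairs among the 5 genes had 20 to 24, with 23 for Masp2 and Mbl1 and 24 for Masp2 and Mbl2. The stretch began 51 bases before the start in Mbl1 and 85 bases before it in Mbl2. Capitals mark these 40 bases, read 5′ to 3′ on the gene's strand.

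Mbl1 (chr14:41151206-41151455, + strand): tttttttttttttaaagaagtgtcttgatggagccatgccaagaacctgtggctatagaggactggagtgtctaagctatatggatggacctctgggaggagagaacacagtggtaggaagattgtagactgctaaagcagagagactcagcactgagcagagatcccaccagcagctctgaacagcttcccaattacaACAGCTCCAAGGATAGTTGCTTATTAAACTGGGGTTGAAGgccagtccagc
Mbl2 (chr19:30232678-30232927, + strand): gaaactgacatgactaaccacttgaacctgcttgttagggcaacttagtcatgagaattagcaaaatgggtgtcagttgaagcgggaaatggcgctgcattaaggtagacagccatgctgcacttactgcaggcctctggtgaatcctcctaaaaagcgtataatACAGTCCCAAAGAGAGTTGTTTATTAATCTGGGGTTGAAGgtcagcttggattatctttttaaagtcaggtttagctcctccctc

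Fcna is shown for its values below the floor in the fractions other than PDPN+ cells, and Colec11 for its difference in the ITGA8 split, each up to the first transcript start that GENCODE annotates. In the full 250 bases before each RefSeq start 6 motifs, none of which contains another, were searched on both strands. The printed sequences of Fcna and Colec11 are the first 194 and 203 of these bases. They were the core promoter box TATAAA, the HNF1 motif GTTAAT, the FOXA motif TGTTTNC, the C/EBP motif TTGCNNAA, the LIM homeodomain motif TAATTA and GAGGAA, the motif of the myeloid factor PU.1. Fcna held the PU.1 motif 3 times, marked in capitals, at 182, 169 and 163 bases before the RefSeq start. The 3 matches lay in a single stretch made mostly of G and A, and those at 169 and 163 bases were end to end. This motif stood, in any number of matches, in 23.25% of 32851 promoter windows of the same length. None of the 6 motifs was found in the windows of Colec11, Masp2, Mbl1 or Mbl2, and the shares of all windows with the other 5 motifs were 12.4% (core promoter box), 6.43% (HNF1), 17.8% (FOXA), 9.56% (C/EBP) and 4.84% (LIM homeodomain).

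Fcna (chr2:25628031-25628224, - strand): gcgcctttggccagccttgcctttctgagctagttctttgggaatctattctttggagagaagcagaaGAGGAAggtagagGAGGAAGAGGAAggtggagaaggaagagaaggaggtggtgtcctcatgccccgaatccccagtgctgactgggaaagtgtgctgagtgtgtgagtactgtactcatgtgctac
Colec11 (chr12:28623378-28623580, - strand): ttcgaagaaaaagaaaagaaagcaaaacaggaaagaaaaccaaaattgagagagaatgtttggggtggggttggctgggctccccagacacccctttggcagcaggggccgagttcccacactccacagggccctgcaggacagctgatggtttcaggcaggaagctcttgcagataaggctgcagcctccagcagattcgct

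Values are intensities as deposited, on a linear scale that is not the same in all arrays. The median intensity was 42 in liver and 66 in ALCAM+ cells, and 123 to 200 in the 4 fractions, so levels are read within each of these sets. A value is also given as its percentile among all probe sets of its own array, which can be set across arrays. The hepatoblast genes Alb and Afp were at 12832 and 7836 in liver cells. The gene Itga8 itself read 4354 in the ITGA8+ and 871 in the ITGA8- array. Intensities of different probe sets depend on their probes and are not compared as levels between genes. Differences are of log2(intensity + 16) between 2 arrays and are counted at 2-fold. Only genes above the floor, an intensity of 109 in the higher array, were counted. In such mixed samples, fewer cells of a type and less RNA per cell cannot be told apart.

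**Figure D1:**
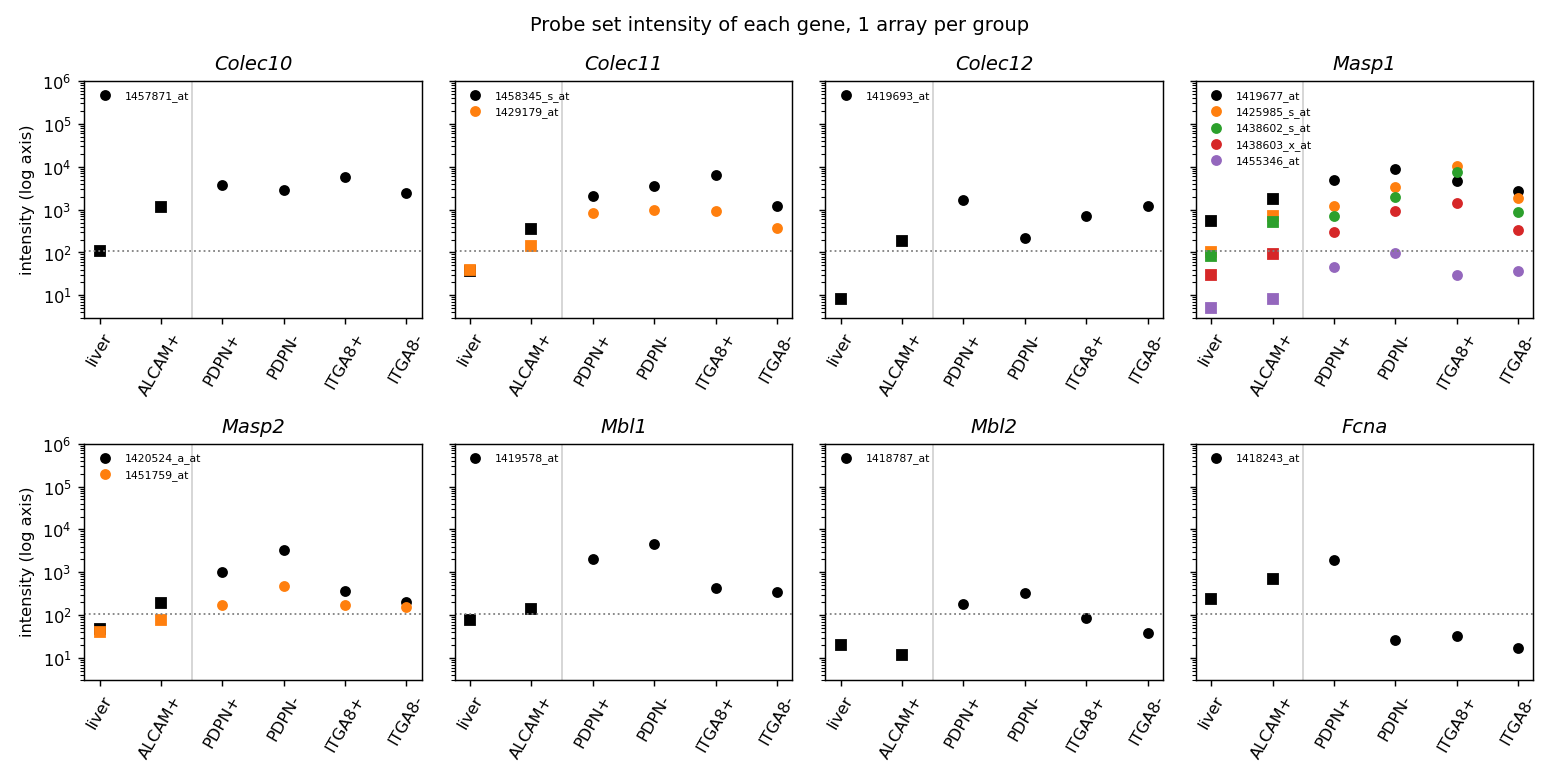
Intensity (log axis) of every probe set of the 8 genes in each array; squares are the 2 arrays on the lower scale, circles the 4 fractions, black the probe set that represents the gene, and the dotted line the floor of 109. Colec10 and Colec11, the latter by 1458345_s_at, reach their highest point in ITGA8+ cells at 5851 and 6291, Mbl1 in PDPN- cells at 4468, and Fcna in PDPN+ cells at 1892.

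Colec10 and Colec11, whose products form a circulating heteromer, were both highest in ITGA8+ cells, Colec11 by 1 of its 2 probe sets. Colec10 (Entrez Gene 239447) had an intensity of 110 in liver and 1142 in ALCAM+ cells, and the fractions read 3701 (PDPN+), 2886 (PDPN-), 5851 (ITGA8+) and 2479 (ITGA8-). The ITGA8+ value exceeded each of the other 3 fractions. Colec10 was 2.35-fold higher in ITGA8+ than in ITGA8- cells (1.23 log2), while PDPN+ and PDPN- cells differed by 0.36.

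Colec11 (Entrez Gene 71693) was at 36 in liver and 358 in ALCAM+ cells, and the fractions read 2105 (PDPN+), 3614 (PDPN-), 6291 (ITGA8+) and 1202 (ITGA8-). It was 5.18-fold higher in ITGA8+ than in ITGA8- cells (2.37 log2), a larger difference than that of 99.9% of the genes above the floor. These values are of 1458345_s_at, whose suffix marks probes that match more than 1 transcript or gene. The other Colec11 probe set, 1429179_at, read 816, 997, 914 and 372 in PDPN+, PDPN-, ITGA8+ and ITGA8- cells. Both probe sets were thus lowest in ITGA8- cells, and the other one gave 1.26 log2 for the ITGA8 split. They did not share the highest fraction: with 1429179_at, PDPN- cells were above ITGA8+ cells.

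Among the 6 members above the floor in the ITGA8 split, these 2 were 2-fold higher and 0 were lower, beside 5.36% higher and 5.98% lower of 13874 genes. The median of the 6 was 0.77 log2, and that of all genes 0.00. Masp1 (0.75), Masp2 (0.80) and Mbl1 (0.34) were on the ITGA8+ side short of 2-fold, and Colec12 was at -0.73. By 1425985_s_at, 1438602_s_at and 1438603_x_at Masp1 was at 2.49, 3.09 and 2.06, past 2-fold, and by 1451759_at Masp2 was at 0.19. Stellate marker genes also leaned to ITGA8+ cells, with 7 of 18 higher and 0 lower; the 7 include Itga8, the gene of the sort. Their summed intensity was 79800 in ITGA8+ and 45450 to 51547 in the other 3 fractions. Megakaryocyte markers were higher in 6 of 8, with sums of 36425 in ITGA8+ and 16023 in ITGA8- cells. The part of either cell type in the collectin difference was not tested.

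Against PDPN+ cells, the ITGA8+ array had 1 member higher and 4 lower of 8, where 16.2% and 14.2% of 14101 genes were; this comparison shares an array with each split. The higher one was Colec11, at 1.57 log2, which falls to 0.16 with the probe set 1429179_at. Colec10 was at 0.66. The lower ones were Fcna (-5.28), Mbl1 (-2.17), Masp2 (-1.47) and Colec12 (-1.22). Fcna was below the floor in ITGA8+ cells, and its value ran from -4.33 to -5.80 with the pseudocount. Masp2 was at -0.01 by its other probe set, 1451759_at. In this comparison 8 of 8 erythroid markers (sums of 50937 and 13647) and 9 of 18 stellate markers were higher in ITGA8+ cells, and 12 of 12 macrophage and 9 of 12 mesothelial markers were lower. Their part in the member values was not tested.

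In the ALCAM comparison Colec10 and Colec11 were again higher, together with Colec12. Relative to the median difference of all genes, which was 0.90 log2 toward ALCAM+, Colec10 was 4.93-fold higher in ALCAM+ than in liver cells (2.30 log2), Colec12 4.51-fold (2.17) and Colec11 3.85-fold (1.95). These 3 of 7 members above the floor were 2-fold higher and 0 lower, beside 15.5% and 11.3% of 10982 genes. Colec11 and Colec12 were below the floor in liver, so the sizes of their folds depend on the pseudocount, and the other Colec11 probe set gave 0.59. Masp2 (0.84), Masp1 (0.79), Fcna (0.62) and Mbl1 (-0.20) lay within 2-fold, and Mbl2 was below the floor in both arrays. Masp1 was past 2-fold when read by 1425985_s_at (1.72) or 1438602_s_at (1.53). Marker lists differed in the same comparison: 10 of 10 mesothelial, 9 of 13 stellate and 5 of 8 megakaryocyte markers above the floor were higher in ALCAM+ cells, and 8 of 8 erythroid markers were lower (median -2.96). Their part in the collectin values was not tested. Without removal of the median shift, Masp1, Masp2 and Fcna also passed 2-fold, at 1.69, 1.74 and 1.52.

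**Figure D2:**
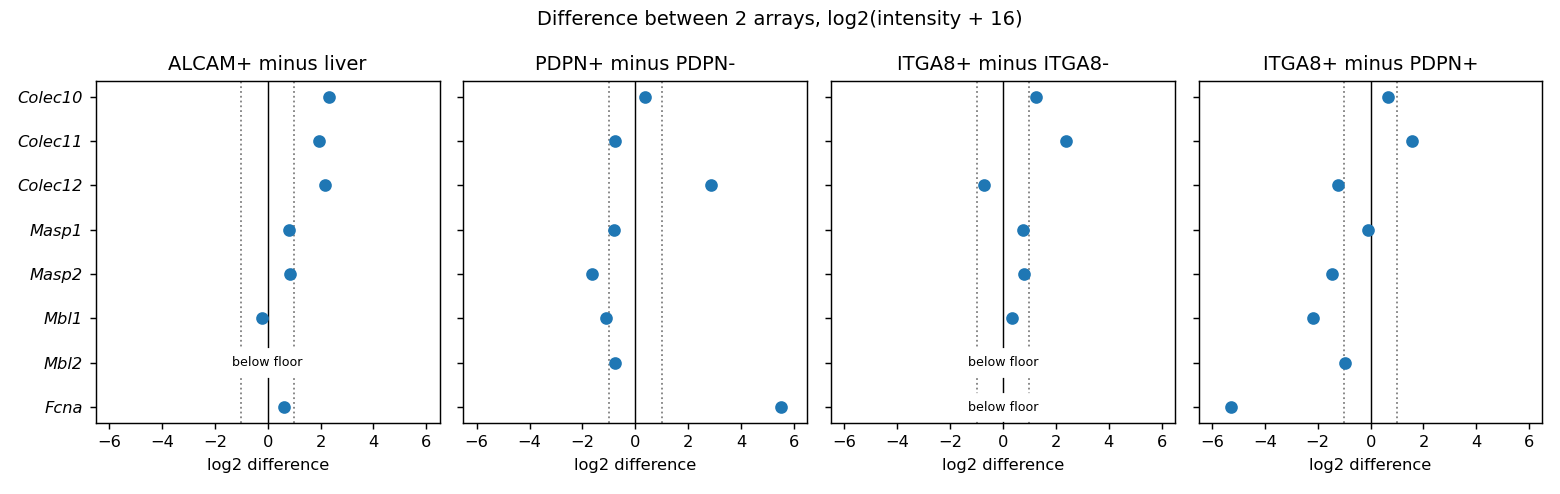
Log2 difference of each gene in the 4 comparisons (points; dotted lines at 2-fold), with ALCAM+ minus liver taken relative to the median of all genes. Colec10 and Colec11 lie to the right of the 2-fold line in ITGA8+ minus ITGA8-, at 1.23 and 2.37, and Fcna spans 5.51 in PDPN+ minus PDPN- to -5.28 in ITGA8+ minus PDPN+.

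Colec12, a membrane collectin that acts as a scavenger receptor, ran opposite to Colec11 in both splits. Colec12 (Entrez Gene 140792) was at 8 in liver and 186 in ALCAM+ cells, and the fractions read 1706 (PDPN+), 219 (PDPN-), 724 (ITGA8+) and 1209 (ITGA8-). It was 7.33-fold higher in PDPN+ than in PDPN- cells (2.87 log2) and at -0.73 log2 in ITGA8+ against ITGA8- cells. The order PDPN+, ITGA8-, ITGA8+, PDPN- was also that of the summed mesothelial markers, at 65004, 50484, 23141 and 1580. Of these 12 markers, 12 were 2-fold higher in PDPN+ cells, Pdpn itself included, and 9 lower in ITGA8+ cells; their part in the Colec12 values was not tested.

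In the PDPN split, 2 of 8 members were 2-fold higher in PDPN+ cells and 2 lower, where 19.9% of 13428 genes were higher and 7.89% lower. Colec12 and Fcna were the higher ones, and Masp2 and Mbl1 the lower ones. The median member was at -0.78 log2, beside 0.04 for all genes. All remaining members but Colec10 were also on the PDPN- side, with Masp1 at -0.81, Mbl2 at -0.79 and Colec11 at -0.78. Megakaryocyte markers were also higher in PDPN+ cells in 8 of 8, with sums of 30252 and 195, and their part in these values was not tested.

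Mbl1 and Mbl2 encode the mannose-binding lectins A and C, the plasma lectins that open the pathway. Mbl1 (Entrez Gene 17194) was at 79 in liver and 138 in ALCAM+ cells, and the fractions read 2036 (PDPN+), 4468 (PDPN-), 440 (ITGA8+) and 345 (ITGA8-). Mbl2 (Entrez Gene 17195) was low throughout, at 20, 12, 184, 329, 85 and 39 in the same order, and above the floor only in the 2 PDPN arrays. For both genes the 2 fractions of the PDPN sort lay above the 2 of the ITGA8 sort, and PDPN- was the highest array. Mbl1 was 2.19-fold higher in PDPN- than in PDPN+ cells and 4.50-fold higher in PDPN+ than in ITGA8+ cells.

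Masp2, whose protease cleaves C4 and C2, was highest in PDPN- cells, as Mbl1 was. Masp2 (Entrez Gene 17175) was at 47 in liver and 194 in ALCAM+ cells, and the fractions read 1029 (PDPN+), 3242 (PDPN-), 361 (ITGA8+) and 201 (ITGA8-). It was 3.12-fold higher in PDPN- than in PDPN+ cells. Centred on their means over the 4 fractions, Masp2 and Mbl1 differed by a root mean square of 0.27 log2, the smallest value among the 28 pairs of members. With Masp2 read by its other probe set, 1451759_at, the value was 1.06. That probe set read 176, 490, 175 and 152 in PDPN+, PDPN-, ITGA8+ and ITGA8- cells. It repeated the PDPN- peak (-1.40 log2) but not the gap between the PDPN+ and ITGA8+ arrays (-0.01).

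The 2 PDPN arrays both exceeded the 2 ITGA8 arrays for 4 of 8 members, namely Mbl1, Mbl2, Masp1 and Masp2, and the reverse held for 0. For Masp1 this holds by 1419677_at, where PDPN+ and ITGA8+ read 4945 and 4673, and not by its other 3 probe sets above the floor, which were highest in ITGA8+ and lowest in PDPN+ cells. For Masp2 the other probe set read 176 and 175 in these 2 arrays. Over 14503 genes above the floor in any fraction these shares were 20.0% and 32.2%. By percentile, Mbl1 stood at 83.4 and 91.4 in PDPN+ and PDPN-, but at 63.7 and 58.0 in ITGA8+ and ITGA8-, near its 62.1 in ALCAM+ and 61.7 in liver cells. The summed intensity of hepatoblast markers followed the same order of fractions, at 283361 (PDPN-), 222126 (PDPN+), 185258 (ITGA8+) and 156565 (ITGA8-). Single markers did not all follow it. Alb did, but Afp was highest in ITGA8+ cells (32957) and Cps1 in ITGA8- cells (2218). Of 15 such markers above the floor, 2 were 2-fold lower in PDPN+ than in PDPN- cells and 4 lower in ITGA8+ than in PDPN+ cells. Alb, at 18532 to 25926 over the fractions, varied less than Ahsg, at 2609 to 16444. Their part in the Mbl1 and Masp2 values was not tested.

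Fcna encodes ficolin A, a plasma ficolin that macrophages of mouse liver and spleen express. Fcna (Entrez Gene 14133) was at 238 in liver and 712 in ALCAM+ cells, and the fractions read 1892 (PDPN+), 26 (PDPN-), 33 (ITGA8+) and 17 (ITGA8-). PDPN+ was the only fraction above the floor. The gene was 45.4-fold higher in PDPN+ than in PDPN- cells (5.51 log2), a size that depends on the pseudocount because PDPN- lay below the floor. By percentile Fcna was at 78.7 in liver, 85.1 in ALCAM+ and 82.4 in PDPN+ cells, and at 26.8, 18.6 and 11.9 in PDPN-, ITGA8+ and ITGA8- cells. The ALCAM+ array thus held a signal that neither fraction of the ITGA8 sort showed.

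Macrophage markers, taken as a sum, were highest in PDPN+ cells, as Fcna was. Their summed intensity was 34089 in PDPN+ and 4317 to 5892 in the other fractions, and 11 of 12 markers above the floor were 2-fold higher in PDPN+ than in PDPN- cells. Adgre1, the F4/80 antigen gene, was at 1169 in PDPN+ and 19 to 44 elsewhere among the fractions, and Cd5l at 2327 and 2 to 13. Other markers stayed above the floor where Fcna was below it, such as Slc40a1 at 3410 in PDPN- and Mrc1 at 917 in ITGA8+ cells. Of the 14 markers listed, 8 were above the floor in each ITGA8 array and 4 in PDPN- cells. Vsig4 and Cd163, listed with them, were at 1 to 31 in all 6 arrays, and no marker was at 0. Their part in the Fcna values was not tested. Fcnb, the ficolin of neutrophil lineage cells, was at 277 in PDPN+ and 5 to 32 in the other fractions, and the lung collectins Sftpa1 and Sftpd stayed below the floor in all 6 arrays.

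Masp1 encodes MASP-1, MASP-3 and the truncated MAp44 by alternative splicing, and GENCODE lists 3 protein-coding transcripts with 3 different 3′ ends. Its 5 probe sets did not give 1 pattern. Masp1 (Entrez Gene 17174) read by 1419677_at, the probe set with the highest mean, was at 533 in liver and 1760 in ALCAM+ cells, and the fractions read 4945 (PDPN+), 8679 (PDPN-), 4673 (ITGA8+) and 2767 (ITGA8-). PDPN- was highest and the ITGA8 split gave 0.75 log2.

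Probe set 1425985_s_at read 102, 709, 1239, 3410, 10640 and 1885 in the same order. Probe set 1438602_s_at read 84, 524, 724, 1962, 7650 and 886, and 1438603_x_at 30, 94, 297, 921, 1439 and 334. All 3 were highest in ITGA8+ and lowest in PDPN+ cells, and their ITGA8 differences were 2.49, 3.09 and 2.06 log2. The 2 s_at probe sets differed from each other by a root mean square of 0.21 log2 over the 4 fractions, and from 1419677_at by 1.19 and 1.31.

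The direction of Masp1 between ITGA8+ and PDPN+ cells turned on the probe set: it was -0.08 log2 by 1419677_at and 3.09, 3.37 and 2.22 by the other 3. In the PDPN split all 4 agreed on PDPN- as the higher fraction, at -0.81 to -1.58. The fifth probe set, 1455346_at, was below the floor in all 6 arrays, at 5 to 99. The suffixes s_at and x_at mark probe sets whose probes match more than 1 transcript or gene. The transcripts that each probe set reads were not analysed here.

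**Figure D3:**
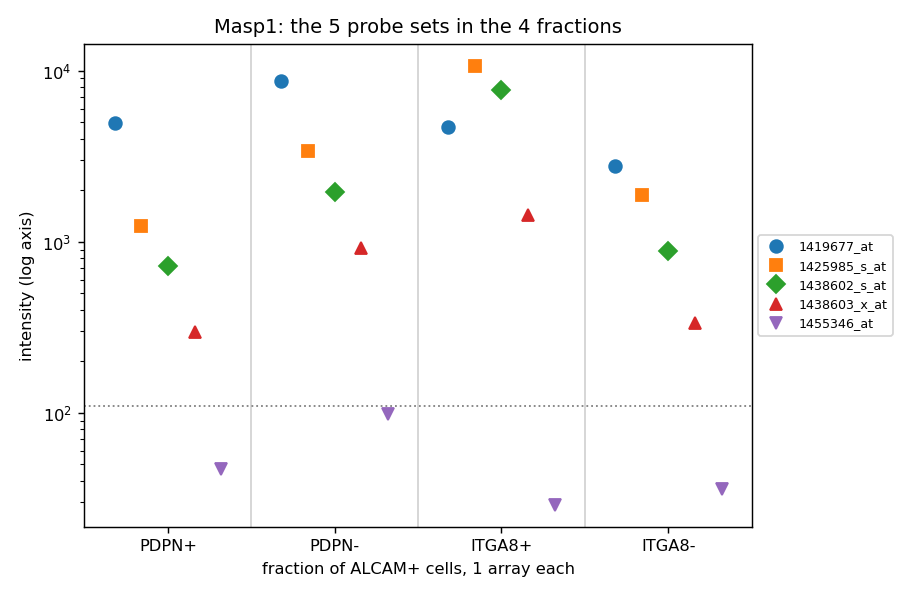
Intensity (log axis) of the 5 Masp1 probe sets in the 4 fractions, 1 array each; the dotted line is the floor of 109. The probe sets 1425985_s_at, 1438602_s_at and 1438603_x_at peak in ITGA8+ cells, while 1419677_at peaks in PDPN- cells at 8679.

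The rest of the complement system was read from lists of 19 cascade genes, 11 regulators and 9 phagocyte receptors, of which 14 cascade genes and all regulators had a probe set of their own. Cascade genes split in the PDPN comparison, with 4 of 12 above the floor higher in PDPN+ and 6 lower (median -1.14 log2, all genes 0.04). Higher were C1qb (7.43), C1qc (7.11) and C1qa (4.25), the chains of the classical pathway's recognition molecule that macrophages make, and Cfp (2.12), properdin. The C1q genes were at 1 to 39 in PDPN- cells, below the floor, so the sizes and order of their differences depend on the pseudocount, as does that of C9, at 39 in PDPN+ cells. Lower were C9 (-2.59), the pore-forming terminal component, C1ra, C2 (-1.96), the substrate of MASP-2, and C8b (-1.84), with C1s1 and C8g at -1.38 and -1.34. In the PDPN split C1q genes thus lay on the side of Fcna, and C2, C8b, C8g and C9 on that of Mbl1; between ITGA8+ and PDPN+ cells C2 (0.30) and C9 did not take the direction of Mbl1.

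C3, the central component, had no probe set of its own. The probe set shared with a C3-like entry read 12506 (PDPN+), 18742 (PDPN-), 6997 (ITGA8+) and 5776 (ITGA8-). A C4b probe set, likewise shared, was at 119, 519, 82 and 49. Both had their highest array in PDPN- cells, as Mbl1 did.

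In the ITGA8 split 1 of 11 cascade genes was higher (C1qb, 315 against 54) and 0 lower, with a median of 0.58. Among regulators, Clu, the gene of clusterin, was higher in ITGA8+ cells (1.27), and 0 of 9 above the floor were lower. Serping1, the C1 inhibitor that also blocks MASPs, was at -0.21 in this split and -0.54 in the PDPN split. It was 1.21 log2 higher in ALCAM+ than in liver cells. Lrp1, an endocytic receptor proposed to bind collectins through calreticulin, was at 8990 in ITGA8+ and 4074 in ITGA8- cells (1.14), and 2.62 higher in ALCAM+ than in liver cells.

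Between ITGA8+ and PDPN+ cells, 7 of 13 cascade genes were lower in ITGA8+ and 1 higher. The lower ones included C1qc (2338 in PDPN+ and 5 in ITGA8+ cells), C1qb (9462 and 315), C1qa (764 and 34) and C8g (-2.04 log2). C9 was higher at 1.36, from 39 in PDPN+ cells. Of the 9 regulators above the floor 0 were higher, and Serping1 was lower (-1.18). Phagocyte receptors were higher in PDPN+ than in PDPN- cells in 5 of 7 above the floor and lower in 0, among them the C5a receptor gene C5ar1 (1578 and 1) and the integrin gene Itgb2 (274 and 2). In ALCAM+ against liver cells, 2 of 10 cascade genes were higher, Hc (1.40), which encodes C5, and C1qb (1.06), and 0 were lower.

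**Figure D4:**
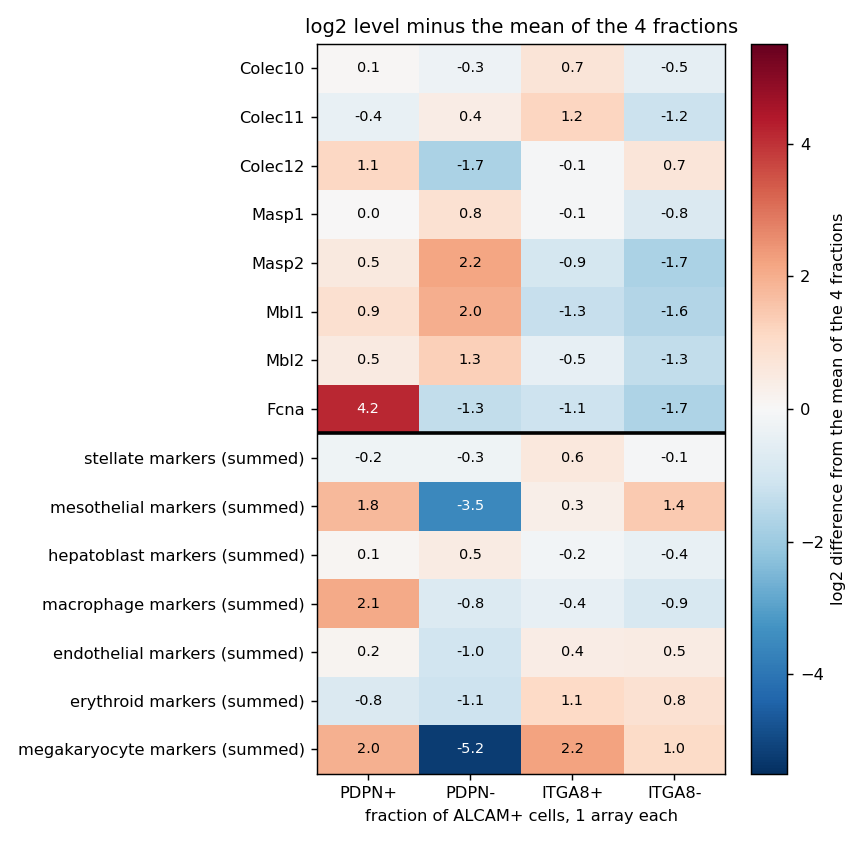
Log2 level minus the mean of the 4 fractions, for the 8 genes (above the line) and for the summed intensity of 7 marker lists (below it); red is above and blue below the mean. Fcna and the macrophage sum are highest in PDPN+ cells (4.2 and 2.1), and Masp2 and Mbl1 in PDPN- cells (2.2 and 2.0).

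The genes with the profiles most like a member's were taken where the member spanned at least 2 log2 over the fractions, by the root mean square difference of centred log2 values over these 4 arrays among 14502 other genes. For Mbl1 they were Slc17a3 (0.05), 0610005C13Rik, Cyp2c23, Mogat2 and H2-Q5, the last at 0.12. For Masp2 they were Slc47a1, Acox2, Hsd3b1, Hao2 and 4931408D14Rik, at 0.13 to 0.15. For Mbl2 they were F5, Pzp, Abcc6, Abca8a and Tst, at 0.07 to 0.10.

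The nearest profiles to Colec11 were farther off, with Adm at 0.19, then Arap2, Cp, Fadd and Mef2b, the last at 0.27. For Colec12 they were Fosb (0.04), Tmem200a, Hoxa3, Gm8267 and Cdh22 (0.08). For Fcna they were Ear3 (0.24), Fcgr1, Mpeg1, Ctss and Ear1 (0.47). Fcna, Ear3, Fcgr1, Mpeg1 and Ear1 were below the floor in every fraction but PDPN+, and Mbl2 was below it in both ITGA8 arrays. Some matches to Colec11 and Colec12 also had values below the floor, such as Mef2b (29 in ITGA8-) and Cdh22 (11 in PDPN-). The distances for Fcna, Mbl2 and these matches thus rest in part on background values and the pseudocount. Colec10 and Masp1 spanned 1.23 and 1.64 and were not searched. With all 6 arrays after quantile normalisation, 2 of the 5 names were shared for Mbl1 (Cyp2c23 and Slc17a3), 1 each for Masp2 (Slc47a1) and Fcna (Ctss), and 0 for Colec11, Colec12 and Mbl2.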

How the data were processed

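RNA (20 ng per sample) was amplified, biotin-labelled and hybridised to Affymetrix mouse arrays, per the labels' protocols. The authors deposited intensity values in whole numbers on a linear scale. They used RMA and Partek, per the submitters' processing notes. The deposited arrays do not share a distribution, with medians from 42 (liver) to 200 (ITGA8-), and no reason for this was found. Software versions and a genome build were not given in the sources used here. All 4 fractions share trimmed means of 996 to 997; liver and ALCAM+ cells have 195 and 329.

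Of 45101 probe sets, 64 controls were left out, and genes were read from the 38011 that name 1 gene. Symbols came from a RefSeq table of GRCm38.p6 through Entrez identifiers (92.1% matched), otherwise from the file. Where a gene had several probe sets, the one of highest mean intensity stood for it. The floor is the median of all values. The genes named are all members, the 5 nearest profiles and some of the list genes. List genes past 2-fold were to be named, at most 4 in each direction, but not all of these are given. Some other list genes were added after their values were seen. A result on 1 listed gene is not reported here. Comparison and profile code was tested on simulated data. Members and lists were chosen with earlier results of these data known. Alternatives changed pseudocount, floor, probe set, scaling and fold. Python 3.11.15, numpy 2.4.6 and pandas 2.3.3 were used.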

Additional observations from a re-analysis of the deposited data

How the results depend on the processing

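No paired analysis was possible because each group has 1 array. Of 224 values of single genes under alternative settings, 200 kept their direction and their side of 2-fold, 15 newly passed 2-fold, 4 no longer did, and 5 changed sign from a value under 2-fold. The number of members higher in ALCAM+ than in liver cells, 3, was 6 with no floor, 6 as deposited, 6 at 1.5-fold and 1 with the floor at the 75th percentile. In ITGA8+ minus ITGA8-, the 2 higher members became 1 at 4-fold and 4 at 1.5-fold, and the 0 lower became 1 at 1.5-fold. The number higher was 3 with the mean of all probe sets and with quantile normalisation. It was also 3 with Masp1 read by 1425985_s_at (chosen after seeing the data). In ITGA8+ minus PDPN+, the 1 higher member became 0 with specific probe sets, 0 at 4-fold and 2 at 1.5-fold, and the 4 lower became 2 at 4-fold. In PDPN+ minus PDPN-, the 2 lower became 0 at 4-fold and 5 at 1.5-fold. Further changes of a count by 1 member, in the comparisons other than the ITGA8 split, are not listed. Of 18 values from a member's other probe sets, also added after seeing the data, 4 stayed on their side of 2-fold. Values under the floor, as for Mbl2 in 4 of 6 arrays, are limited by background signal.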

Other observations

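Probe set 1425985_s_at of Masp1 was compared with all other genes in the same way, a choice made after its values were seen. The nearest profile over the 4 fractions was that of Gdf2, the gene of BMP9, at a root mean square difference of 0.11 log2. Gdf2 was at 894 (PDPN+), 2481 (PDPN-), 6991 (ITGA8+) and 1133 (ITGA8-). The next were Rbp3 (0.21), Clec4g (0.22), Tmem204 (0.24) and Fndc5 (0.24). Clec4g, a C-type lectin of liver sinusoidal endothelium, was low, at 296 in ITGA8+ and 33 to 71 in the other fractions. Rbp3 was low too, at 206 in ITGA8+ and 14 to 63 in the other fractions.

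Other C-type lectins of the liver divided by fraction. The asialoglycoprotein receptor genes Asgr1 and Asgr2, expressed by hepatocytes, were at -2.16 and -2.03 log2 in PDPN+ against PDPN- cells. Clec1b, the platelet receptor of podoplanin (5.67), the macrophage mannose receptor Mrc1 (4.13), the Kupffer cell lectin Clec4f (3.81) and Mrc2 (1.90) were higher. Clec1b, Mrc1 and Clec4f were below the floor in PDPN- cells (57, 105 and 4), Asgr1 in PDPN+ cells (85) and Clec4g in ITGA8- cells (44), so the sizes of these differences depend on the pseudocount. In the ITGA8 split Clec4g (2.38) and Clec1b (1.46) were higher in ITGA8+ cells, and 0 of 6 above the floor were lower.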
